A study of Mus musculus with 3 samples.

Results

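Hyaluronan is handled in fat stroma by enzymes that make it, proteins that cross-link it, a receptor that binds it and enzymes that cut it, and 9 genes of these kinds are described here: the synthases Has1 and Has2, the binding and cross-linking genes Tnfaip6, Ptx3, Vcan and Itih5, the receptor Cd44, and the hyaluronidases Hyal1 and Hyal2. They were chosen by name, with earlier results of these data known, and are 9 of the 32285 genes in the count tables. Single cells were measured in 3 wild-type male C57BL/6J mice aged 8 weeks, untreated as far as the labels say. Each mouse gave 1 library. The cells were the stromal vascular fraction of the subcutaneous inguinal depot, freed with collagenase and sorted as CD31- CD45-, so that endothelial cells and leukocytes were largely removed. The comparisons here are between classes of cells of the same mice, not between treatments.

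The cells were placed in classes by the UMIs (unique molecular identifiers, 1 for each captured transcript) of a few genes. Progenitor cells had at least 3 UMIs of Dpp4 and Pi16 together and at most 1 of Icam1 and Fabp4. Preadipocyte cells had at least 4 UMIs of Icam1 and Fabp4 and at most 1 of Dpp4. Regulatory cells had at least 1 UMI each of Clec11a and Fmo2 and at most 1 each of Fabp4 and Dpp4. The 3 mice gave 7399, 3169 and 9273 progenitor cells, 2278, 1394 and 1889 preadipocyte cells, and 270, 384 and 404 regulatory cells. A further 2988, 1348 and 3517 cells met no gate, and the 49, 119 and 96 cells that met more than 1 gate were left out.

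Hyaluronan is a long sugar chain of the extracellular matrix, made at the plasma membrane by the synthases from UDP-glucuronic acid and UDP-N-acetylglucosamine and pushed out of the cell as it grows. Outside the cell, TSG-6 (the product of Tnfaip6) transfers heavy chains of the inter-alpha-inhibitor family onto it, pentraxin 3 (Ptx3) brings such complexes together, and versican (Vcan) binds it through its link domain. CD44 is the main cell surface receptor for hyaluronan and a common marker of mesenchymal cells, and the hyaluronidases cut the chain for uptake and lysosomal breakdown.

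Promoter windows of RefSeq (GRCm38.p6, 250 bases before to 50 bases after the RefSeq start of the gene) were found for 8 of the 9 genes, all but Has2. The 4 windows below belong to the receptor and to the 3 genes with the strongest co-detection with it in preadipocyte cells, and they are printed 5′ to 3′ on the strand of the gene, with capitals for matches to the motifs searched.
Cd44 promoter, chr2:102901616-102901915, minus strand: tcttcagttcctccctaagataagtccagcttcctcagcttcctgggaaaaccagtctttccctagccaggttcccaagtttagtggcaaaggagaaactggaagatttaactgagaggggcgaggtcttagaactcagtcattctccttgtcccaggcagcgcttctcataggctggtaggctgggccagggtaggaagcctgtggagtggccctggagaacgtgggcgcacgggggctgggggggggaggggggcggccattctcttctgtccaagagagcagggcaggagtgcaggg
Has1 promoter, chr17:17855139-17855438, minus strand: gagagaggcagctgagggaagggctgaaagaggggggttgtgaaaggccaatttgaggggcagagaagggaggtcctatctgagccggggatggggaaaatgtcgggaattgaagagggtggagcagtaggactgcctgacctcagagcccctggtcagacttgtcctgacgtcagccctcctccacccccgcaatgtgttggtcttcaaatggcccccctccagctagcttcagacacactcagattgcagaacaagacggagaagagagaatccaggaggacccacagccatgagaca
Ptx3 promoter, chr3:66219637-66219936, plus strand: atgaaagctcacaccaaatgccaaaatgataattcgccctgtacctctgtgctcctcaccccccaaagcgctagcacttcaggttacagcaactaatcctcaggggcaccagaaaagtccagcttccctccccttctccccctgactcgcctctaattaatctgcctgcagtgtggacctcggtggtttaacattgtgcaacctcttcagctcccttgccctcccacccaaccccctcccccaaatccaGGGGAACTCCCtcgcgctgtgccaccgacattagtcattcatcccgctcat
Tnfaip6 promoter, chr2:52037863-52038162, plus strand: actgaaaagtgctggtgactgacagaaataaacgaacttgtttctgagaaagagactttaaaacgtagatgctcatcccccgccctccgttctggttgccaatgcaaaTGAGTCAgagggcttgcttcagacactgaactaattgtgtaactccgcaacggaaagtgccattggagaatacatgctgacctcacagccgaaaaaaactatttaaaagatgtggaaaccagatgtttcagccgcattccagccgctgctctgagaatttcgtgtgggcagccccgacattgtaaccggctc
The motifs were AP-1 (TGANTCA), the NF-kB consensus and the TATA box (TATAAA), on both strands. Tnfaip6 held 1 AP-1 match, TGAGTCA, whose first base lies 142 bases before the RefSeq start, which lies inside the gene as GENCODE places it. Ptx3 held 2 NF-kB matches that overlap each other and begin 1 base before the RefSeq start and at that start, which lies upstream of the gene as GENCODE places it. In the other windows, Hyal2 held 1 NF-kB match 238 bases before the RefSeq start, which lies inside the gene as GENCODE places it, and no motif matched in Cd44, Has1, Vcan, Itih5 or Hyal1. Of 32851 RefSeq windows of the same length, 7.81% held the AP-1 motif, 4.51% the NF-kB motif and 13.6% the TATA box. A match is a string of letters and not evidence of binding.

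The kept libraries held 94816520, 78108414 and 99328725 UMIs, with medians of 7392.5, 12192.5 and 6667 per cell, so mouse 2 had the fewest cells and the deepest ones. Any pair of libraries shared between 37 and 59 cell barcodes. Doublets were not removed, and 571, 309 and 731 kept cells carried both at least 3 UMIs of Dpp4 and Pi16 and at least 4 of Icam1 and Fabp4. The gates were checked with genes they did not use. All 7 progenitor markers were lower and all 7 preadipocyte markers higher in preadipocyte than in progenitor cells. The 6 regulatory markers were higher in both other classes than in progenitor cells, but only 4 of 6 were higher in regulatory than in preadipocyte cells and 2 were lower, so the regulatory and preadipocyte gates were less well separated. Markers of other cell types moved with the gates. Summed endothelial markers (6 genes) reached 32.4, 59.0 and 4.13 CPM (UMIs per 1000000 UMIs of the summed cells) in the preadipocyte cells of the 3 mice and 8.55, 2.58 and 2.79 CPM in progenitor cells, and 5 of 6 were called higher. Summed mural markers (6 genes) were at 59.5, 31.6 and 59.3 CPM in preadipocyte cells against 7.48, 4.22 and 6.48 CPM in progenitor cells, and 6 of 6 were called higher, with a median log2 difference of 3.05. Of 19 residual mural cells (at least 3 UMIs of Rgs5 and Notch3 together and no Pdgfra), 12 held a Tnfaip6 UMI and 13 an Itih5 UMI at 3000 UMIs per cell. Summed mesothelial markers (6 genes) were at 0, 2.16 and 105 CPM in regulatory cells. Summed epithelial markers (4 genes) were at 0, 0 and 35.1 CPM there, with Krt14, Krt5 and Krt15 at 0. The part of these cells in the class differences was not tested.

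Preadipocyte and progenitor cells differed in 7 of the 9 genes by edgeR's quasi-likelihood test on sums per mouse, with Benjamini-Hochberg adjustment over all genes. That is 3 higher and 4 lower, against 56.4% of all 13258 genes tested (27.2% higher and 29.2% lower), so the share of genes called says little by itself and the size and direction of each matter more. The median log2 difference of the 9 genes was 0.02, beside 0.00 for all genes. Regulatory and progenitor cells also differed in 7 of the 9, with 1 higher and 6 lower, against 42.9% of all genes (18.9% higher and 24.0% lower). The median of the 9 genes was -0.75 there, beside -0.05 for all genes. Between preadipocyte and regulatory cells 5 of the 9 differed, with 3 higher and 2 lower in preadipocyte cells, against 25.7% of all genes (13.4% higher and 12.3% lower).

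**Figure D1:**
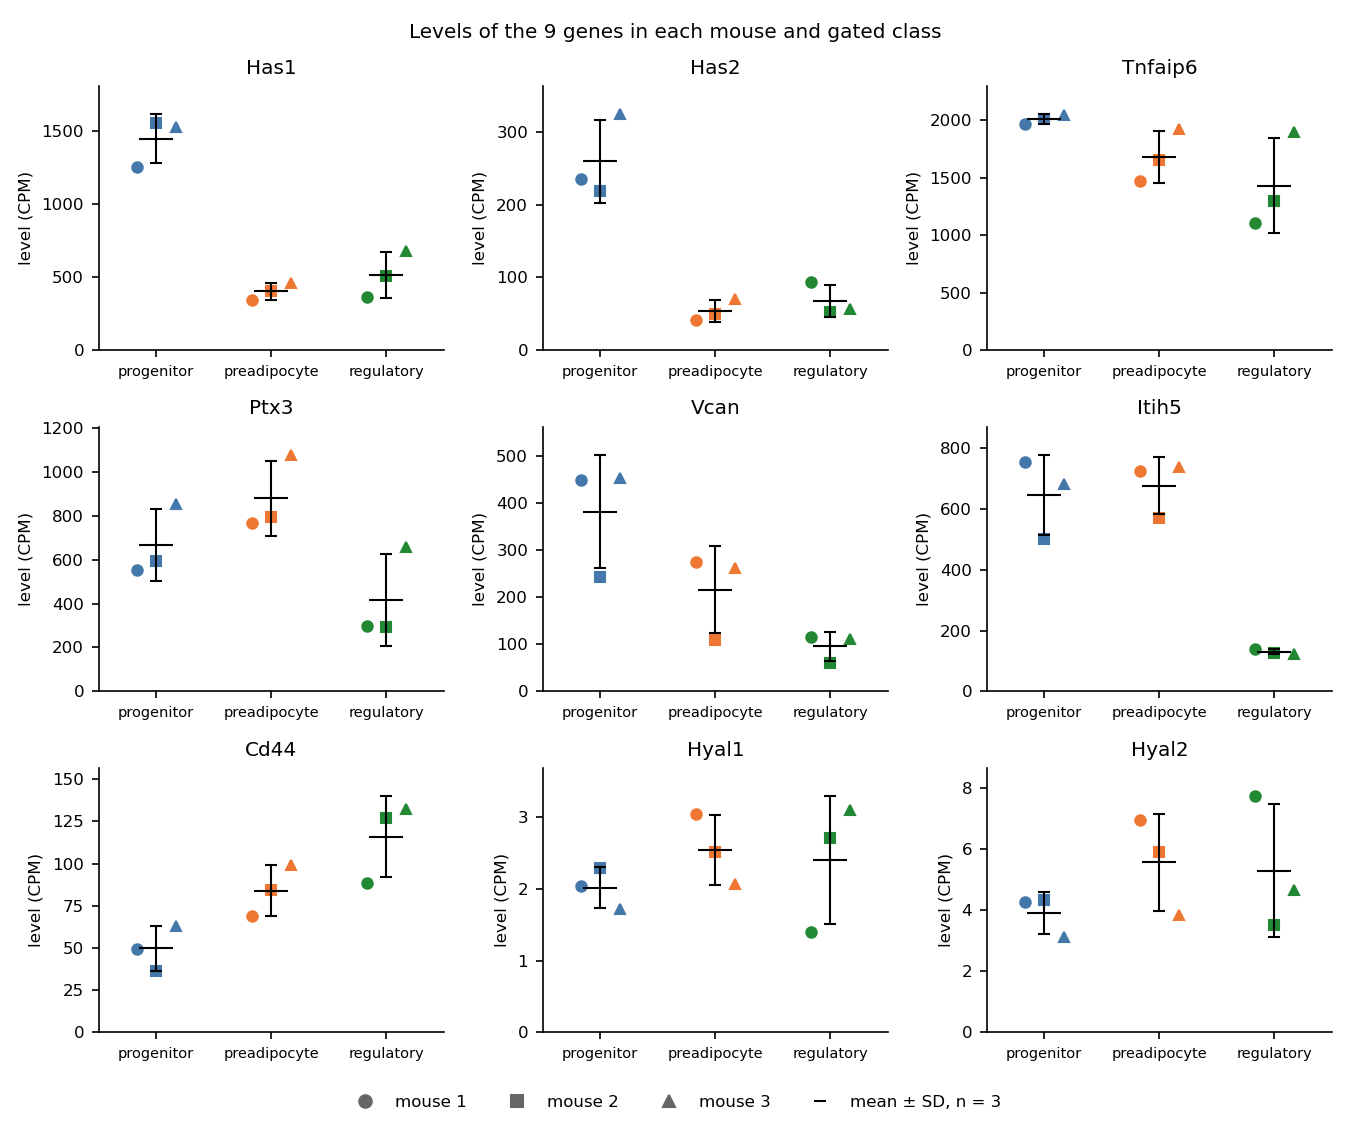
Level of each of the 9 genes in CPM (vertical axis, from 0) in progenitor, preadipocyte and regulatory cells, with 1 symbol per mouse and the mean ± SD of 3 mice. Has1 and Has2 were highest in progenitor cells of every mouse, Itih5 was lowest in regulatory cells, and Cd44 ran the other way.

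Has1 (chr17:17843323-17855205, minus strand) encodes a hyaluronan synthase and was the gene of the set with one of the widest gaps between classes. Its level in progenitor cells was 1257, 1557 and 1529 CPM in mice 1, 2 and 3. In preadipocyte cells it was 343, 404 and 461 CPM, and in regulatory cells 367, 507 and 680 CPM. Every progenitor value stood above every value of the other classes, which overlapped with each other. The log2 difference was -1.91 ± 0.0940 (SE, adjusted p = 5.26e-09) for preadipocyte against progenitor cells and -1.51 ± 0.0962 (adjusted p = 1.27e-07) for regulatory against progenitor cells. Preadipocyte cells were 0.39 lower than regulatory cells on the log2 scale (adjusted p = 0.00934), lower in 3 of 3 mice, but the call was lost without mouse 2 (adjusted p = 0.0637) or without mouse 3 (adjusted p = 0.0518).

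Has2 (chr15:56665627-56694539, minus strand) encodes the synthase that makes most hyaluronan in many mesenchymal tissues, and it followed the pattern of Has1. Progenitor cells had 235, 218 and 324 CPM, preadipocyte cells 41.7, 49.7 and 70.7 CPM, and regulatory cells 93.4, 53.3 and 57.3 CPM. The progenitor values again did not overlap with the others. The log2 differences from progenitor cells were -2.32 ± 0.159 (adjusted p = 9.91e-08) in preadipocyte and -1.97 ± 0.188 (adjusted p = 4.22e-06) in regulatory cells. Preadipocyte and regulatory cells overlapped (log2 difference -0.35 ± 0.200, adjusted p = 0.238). Exons of the antisense gene Has2os overlap those of Has2. The sources used here do not say whether strand was used in counting. Whether reads of the pair were kept apart was therefore not checked. The third synthase gene, Has3, had at most 17 UMIs in any class of any mouse and was not tested.

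The enzymes that supply the sugars of hyaluronan followed the synthases. Of the 11 genes of this list, 9 were lower and 0 higher in preadipocyte than in progenitor cells, with a median log2 difference of -0.91. In regulatory cells 11 of 11 were lower, with a median of -0.73. Of all genes, 29.2% were lower in preadipocyte and 24.0% in regulatory cells. Ugdh, which makes UDP-glucuronic acid, differed by -2.00 ± 0.0703 in preadipocyte cells (adjusted p = 3.15e-10) and by -1.87 ± 0.0712 in regulatory cells (adjusted p = 1.61e-09). Uap1, which makes UDP-N-acetylglucosamine, differed by -2.21 and -1.55. Gfpt2, an entry enzyme of the hexosamine pathway, differed by -1.80 and -1.85, and Gnpnat1, of the same pathway, by -1.87 and -1.89. Pgm3 (-0.91 and -0.60), Ugp2 (-1.08 and -1.07) and Hk2 (-0.83 and -0.73) were lower too, whereas Gfpt1 and Nagk differed less, by -0.20 and -0.21 in preadipocyte and by -0.35 and -0.44 in regulatory cells. These genes passed the test with the same sign in every mouse, while Hk1 (-0.02, adjusted p = 0.920) and Gpi1 (-0.14, adjusted p = 0.0600) did not pass in preadipocyte cells.

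**Figure D2:**
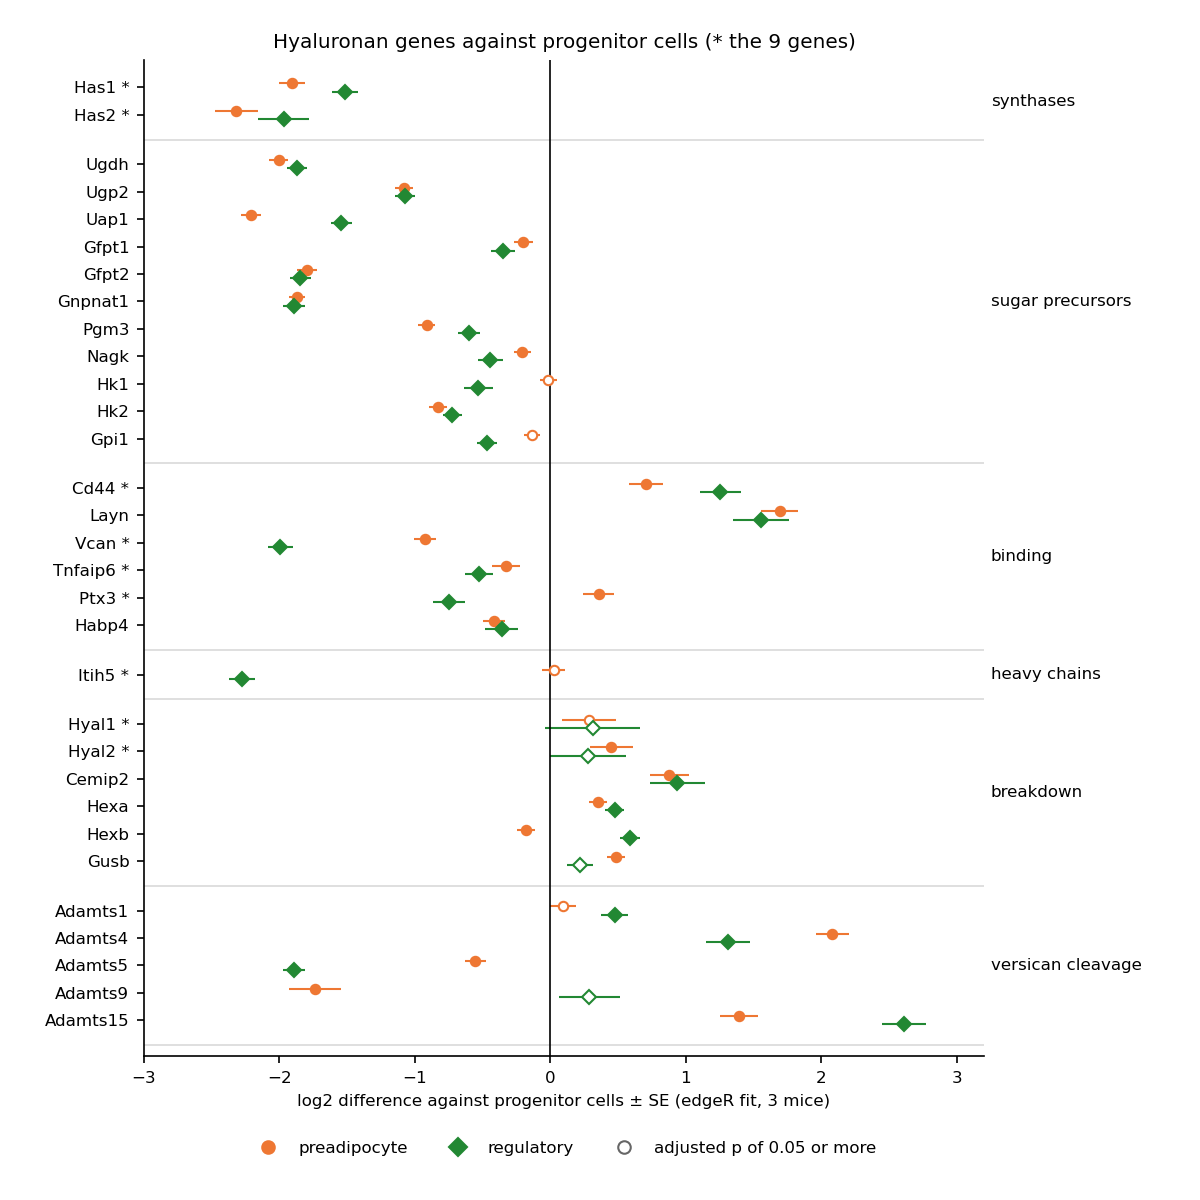
Log2 difference ± SE from progenitor cells (horizontal axis, edgeR fit on sums of 3 mice) for preadipocyte (circles) and regulatory cells (diamonds), by role, for the 9 genes (starred) and the other tested genes of the pathway with at least 20 CPM in a class. Synthases and sugar precursors lie to the left of 0, while Cd44 and Layn lie to the right.

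Tnfaip6 (chr2:52038009-52056686, plus strand) encodes TSG-6, the enzyme that couples heavy chains to hyaluronan. Progenitor cells had 1967, 2012 and 2048 CPM, preadipocyte cells 1472, 1656 and 1920 CPM, and regulatory cells 1102, 1294 and 1893 CPM. No value of the other classes reached the lowest progenitor value, but mouse 3 came close in both. The log2 difference from progenitor cells was -0.32 ± 0.104 (adjusted p = 0.0182) in preadipocyte cells and -0.53 ± 0.106 (adjusted p = 0.00158) in regulatory cells. The first call was lost without mouse 1 (adjusted p = 0.103) or without mouse 2 (adjusted p = 0.0948). Summed mesothelial markers stood at 105 CPM in the regulatory cells of mouse 3, and their part in its high values was not tested.

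Ptx3 (chr3:66219910-66225805, plus strand) encodes pentraxin 3, a soluble pattern recognition protein that also helps to organize hyaluronan matrix, and it was the only gene of the set besides Cd44 and Hyal2 that was called higher in preadipocyte than in progenitor cells. Its level was 554, 594 and 854 CPM in progenitor cells, 767, 794 and 1074 CPM in preadipocyte cells, and 296, 294 and 657 CPM in regulatory cells. Mouse 3 was the highest in each class, and progenitor and preadipocyte values overlapped between mice. With every cell thinned to the same depth, 46.6%, 36.0% and 54.2% of preadipocyte cells held a Ptx3 UMI in mice 1, 2 and 3. In progenitor cells 47.1%, 39.4% and 59.8% did, so Ptx3 was not detected in a larger share of preadipocyte cells in any mouse. Within a mouse, the level in the summed preadipocyte cells nevertheless exceeded that in progenitor cells in 3 of 3 mice, with a log2 difference of 0.36 ± 0.114 (adjusted p = 0.0182). This call was lost with a gate of at least 4 UMIs of Fabp4 alone (0.13, adjusted p = 0.387), with the gate applied to thinned cells (0.21, adjusted p = 0.0626) and with a robust estimate of the spread (adjusted p = 0.0511). Regulatory cells were lower than progenitor cells by -0.75 ± 0.120 (adjusted p = 0.000321) and lower than preadipocyte cells in 3 of 3 mice, by 1.10 ± 0.121 (adjusted p = 3.00e-05), without overlap.

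Vcan (chr13:89655312-89742509, minus strand) encodes versican, a large proteoglycan that binds hyaluronan. Mouse 2 was the lowest in every class, with 243, 110 and 60.9 CPM in progenitor, preadipocyte and regulatory cells. Mouse 1 had 448, 275 and 116 CPM and mouse 3 452, 262 and 111 CPM in the same order. The order of the classes was therefore the same in every mouse, although preadipocyte values overlapped with both neighbours between mice. The log2 difference from progenitor cells was -0.93 ± 0.0799 in preadipocyte (adjusted p = 8.45e-07) and -1.99 ± 0.0949 in regulatory cells (adjusted p = 1.09e-08).

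Itih5 (chr2:10153571-10256529, plus strand) encodes a heavy chain of the inter-alpha-inhibitor family and parted the regulatory cells from the rest. Progenitor cells had 753, 500 and 682 CPM and preadipocyte cells 725, 568 and 736 CPM, which overlapped (log2 difference 0.02 ± 0.0820, adjusted p = 0.832). Regulatory cells had 140, 127 and 124 CPM, lower than progenitor cells by -2.28 ± 0.0955 (adjusted p = 3.76e-09) and lower than preadipocyte cells by 2.30 ± 0.0957 (adjusted p = 1.47e-08). After thinning every cell to 3000 UMIs, 29.2%, 22.2% and 24.4% of regulatory cells held an Itih5 UMI. Among 24 residual endothelial cells (at least 2 UMIs of Pecam1 and Cdh5 together and no Pdgfra), 6 held one (95% exact interval 9.77% to 46.7%, counting error only). The shares in regulatory cells lay within that interval and could not be told from it. Of 7 residual leukocytes (at least 2 UMIs of Ptprc and Tyrobp together and no Pdgfra) 0 held one, and of 19 residual mural cells 13 did. Whether regulatory cells made Itih5 at this level was not tested.

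Cd44 (chr2:102811141-102901665, minus strand), the receptor, ran against the synthases. Its level was 49.6, 36.6 and 63.0 CPM in progenitor cells, 68.7, 84.3 and 99.0 CPM in preadipocyte cells, and 88.5, 127 and 132 CPM in regulatory cells. Progenitor values did not overlap with either of the other classes, while preadipocyte and regulatory values overlapped between mice. The log2 difference from progenitor cells was 0.71 ± 0.127 (adjusted p = 0.000467) in preadipocyte cells and 1.25 ± 0.149 (adjusted p = 2.76e-05) in regulatory cells. Preadipocyte cells were lower than regulatory cells in 3 of 3 mice, by -0.55 ± 0.148 (adjusted p = 0.0166), but this call was lost without mouse 3 (adjusted p = 0.0807) and with a robust estimate of the spread (adjusted p = 0.0965).

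Cd44 was sparse in all classes. At 3000 UMIs per cell, 12.1%, 8.66% and 15.1% of progenitor cells held a Cd44 UMI, against 16.3%, 18.3% and 22.2% of preadipocyte cells and 23.0%, 26.3% and 28.5% of regulatory cells. Without thinning the shares were 22.7%, 24.8% and 26.1%, then 31.7%, 45.8% and 38.8%, then 33.7%, 48.4% and 38.6%. Of the residual endothelial cells, 8.33% held a Cd44 UMI (95% exact interval 1.03% to 27.0%), although endothelial cells can make Cd44 themselves. These were 2 of the 24 cells, out of 69 residual endothelial cells, that reached 3000 UMIs. That interval takes in the shares of progenitor and preadipocyte cells in every mouse and of the regulatory cells of mice 1 and 2. It is too wide to tell detection of Cd44 in a single cell at this depth from background, or to show that it was background. A cell without a Cd44 UMI is therefore a cell in which Cd44 was not detected at this depth, not one that lacks it.

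Over the 9 sums of 3 mice and 3 classes, the genes whose log2 levels went most closely with Cd44 were Gxylt2 (Pearson's r = 0.981), Ube2f (0.968), Rnf150 (0.954), Ikzf4 (0.952) and C77080 (0.945), of which Rnf150 and C77080 averaged only 2.24 and 0.568 CPM. For the other genes of the set the same r ran from -0.71 (Has2) to 0.28 (Hyal1). These are descriptions over sums that share mice, with no test.

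The hyaluronidases were close to the limit of detection. Hyal1 (chr9:107576927-107581710, plus strand), a lysosomal hyaluronidase, had at most 3.10 CPM in any class of any mouse, from 2 to 110 UMIs. Its exons overlap those of Hyal3 and Naa80 on the same strand, so that its counts may be incomplete. Hyal2 (chr9:107567945-107572779, plus strand), which is anchored in the plasma membrane, had between 3.11 and 7.72 CPM. Hyal2 was called higher in preadipocyte than in progenitor cells, in 3 of 3 mice, by 0.45 ± 0.157 on the log2 scale (adjusted p = 0.0278), but the values overlapped between mice. The call was lost with DESeq2 (adjusted p = 0.0737), with thinning after gating (adjusted p = 0.104), with the gate applied to thinned cells (adjusted p = 0.0520), without mouse 1 (adjusted p = 0.136) and without mouse 2 (adjusted p = 0.0551). The other differences of the hyaluronidases did not pass the test.

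Beyond the 9 genes, 32 other genes of the hyaluronan list were tested in the class comparison, of 55 found in the tables. The 32 genes include the 11 sugar precursors described above. In preadipocyte against progenitor cells 8 were higher and 17 lower, against 27.2% and 29.2% of all genes. The median log2 difference was -0.19, beside 0.00 for all genes. In regulatory against progenitor cells 8 were higher and 17 lower, against 18.9% and 24.0% of all genes. The median was -0.36, beside -0.05 for all genes. The receptor gene Layn (layilin, a hyaluronan binding lectin) was higher in both, by 1.69 and 1.55, and Cemip2, a cell surface hyaluronidase, by 0.88 and 0.94. Of the genes for proteases that cut versican, Adamts4 was higher by 2.08 and 1.31 and Adamts15 by 1.39 and 2.61, whereas Adamts5 was lower, by -0.55 and -1.89. The lysosomal enzyme genes Hexa (0.35 and 0.47) and Gusb (0.48 in preadipocyte cells) were higher by smaller amounts. By role, with the 9 genes included, 3 of 9 binding genes were higher and 4 lower in preadipocyte cells. Of 6 breakdown genes 4 were higher and 1 lower, and of 5 versican protease genes 2 and 2. Of 6 genes for partners of Cd44 (Msn, Ezr and the like), 1 was higher and 3 lower. In regulatory cells these counts were 2 and 5, 3 and 0, 3 and 1, and 0 and 3, in the same order.

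Genes listed as a response to tissue digestion differed in level between the classes, but no undigested cells were measured, so digestion itself was not tested. The summed level of 23 genes of a dissociation response (Fos, Jun, Hspa1a and the like) was between 23638 and 27922 CPM in progenitor cells, between 31976 and 38637 CPM in preadipocyte cells and between 31723 and 35455 CPM in regulatory cells. In both preadipocyte and regulatory cells 14 of 23 were called higher than in progenitor cells, against 27.2% and 18.9% of all genes. The summed level of 14 NF-kB targets went the other way, with 6206, 6911 and 9456 CPM in progenitor cells against 4576, 4790 and 6794 CPM in preadipocyte cells, although that sum holds the gate gene Icam1. Of the 13 targets other than Icam1, 2 were called higher and 8 lower in preadipocyte cells, where 27.2% of all genes were higher and 29.2% lower. Their part in the class differences of the 9 genes was not tested.

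Within each class, cells with at least 1 Cd44 UMI were then compared with cells without one, at 3000 UMIs per cell, in sums per mouse. In preadipocyte cells 5 of the 6 genes tested rose with Cd44 and 0 fell, with a median log2 difference of 0.89, beside 0.01 for all genes, of which 6.8% were called (5.28% higher and 1.52% lower). Of the called genes 77.6% were higher, or 62.4% with scaling by library size only. In regulatory cells 3 of 6 rose and 0 fell (median 0.47), against 1.1% of all genes (0.757% higher and 0.34% lower). In progenitor cells 2 of 6 rose and 0 fell (median 0.12), against 2.16% of all genes (1.39% higher and 0.768% lower). Hyal1 and Hyal2 had too few UMIs to be tested. Has1, Has2, Tnfaip6 and Vcan, which were lower in the preadipocyte class than in the progenitor class, were thus higher in those preadipocyte cells in which Cd44 was detected.

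Ptx3 moved most in preadipocyte cells. Cells with Cd44 had 1288, 1605 and 2027 CPM of Ptx3 in mice 1, 2 and 3, and cells without had 654, 624 and 842 CPM, with no overlap. The log2 difference was 1.25 ± 0.0536 (adjusted p = 5.43e-33), and Ptx3 ranked 3 of the 332 genes of at least 50 CPM that rose in every mouse. The paper that reported these cells had named Cd44 and Ptx3 among the markers that split its Icam1+ cells. This rise in the same cells is therefore not independent of that result. The paper also sorted cells by ICAM1 and CD44 protein, and reported high Ptx3 by quantitative RT-PCR in those with high CD44. In progenitor cells the values were 697, 813 and 1042 CPM with Cd44 and 541, 572 and 822 CPM without, a smaller log2 difference of 0.37 ± 0.0518 (adjusted p = 2.45e-07) in 3 of 3 mice, which did not pass without thinning (adjusted p = 0.118). In regulatory cells they were 361, 467 and 944 CPM against 228, 216 and 621 CPM, higher in 3 of 3 mice with overlap between mice, and with a log2 difference of 0.80 ± 0.116 (adjusted p = 9.37e-07). Ptx3 was thus the one gene of the set called in all 3 classes.

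The synthase Has1 had 506, 788 and 628 CPM in preadipocyte cells with Cd44 and 291, 311 and 404 CPM in those without, again with no overlap, and a log2 difference of 0.95 ± 0.0765 (adjusted p = 2.52e-17). Mouse 2 had the largest ratio, and with a robust estimate of the spread, in which a gene of unusual variance keeps more of its own, the adjusted p was 0.0203. In regulatory cells Has1 had 486, 1015 and 817 CPM against 298, 376 and 622 CPM (log2 difference 0.92 ± 0.124, adjusted p = 1.32e-07). Mouse 2 led here too, and the robust estimate ended the call (adjusted p = 0.383). In progenitor cells Has1 was higher with Cd44 in 3 of 3 mice, but the log2 difference of 0.11 ± 0.0572 did not pass the test (adjusted p = 0.428).

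Has2 had 78.3, 72.3 and 98.8 CPM in preadipocyte cells with Cd44 and 35.9, 42.9 and 64.7 CPM in those without, with no overlap and a log2 difference of 0.86 ± 0.121 (adjusted p = 5.77e-08), which fell to 0.42 (adjusted p = 0.243) at 2000 UMIs per cell. In progenitor cells the difference of 0.18 ± 0.0530 was just past the threshold (adjusted p = 0.0497), and leaving out any 1 mouse, 2000 or 5000 UMIs per cell, a stricter gate or no thinning ended that call. In regulatory cells Has2 had 90.3, 37.0 and 51.6 CPM with Cd44 and 97.3, 38.4 and 58.5 CPM without, from only 36 UMIs in the former, and did not pass the test (adjusted p = 0.970).

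Tnfaip6 had 2289, 2855 and 2818 CPM in preadipocyte cells with Cd44 and 1288, 1366 and 1675 CPM in those without (log2 difference 0.93 ± 0.0539, adjusted p = 1.40e-24). The 3 values with Cd44 stood above all values without. In regulatory cells it had 1340, 2200 and 2706 CPM against 1010, 1016 and 1730 CPM, higher in 3 of 3 mice with some overlap (0.81 ± 0.0786, adjusted p = 8.99e-13). With the robust estimate the adjusted p was 0.000390 in preadipocyte and 0.0381 in regulatory cells. In progenitor cells Tnfaip6 was higher with Cd44 in 3 of 3 mice, but the difference of 0.09 ± 0.0511 did not pass the test (adjusted p = 0.474).

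Vcan rose with Cd44 in preadipocyte cells, with 390, 149 and 339 CPM against 247, 88.6 and 233 CPM (0.67 ± 0.0732, adjusted p = 1.01e-11). The values overlapped between mice, since mouse 2 was low in both, but the rise was seen in 3 of 3 mice. In progenitor cells the difference of 0.13 did not pass the test (adjusted p = 0.230), although it did at 2000 UMIs (0.22, adjusted p = 0.0274) and at 5000 UMIs per cell (0.20, adjusted p = 0.0102). Itih5 did not pass the test in any class. In preadipocyte cells its levels were 740, 572 and 726 CPM with Cd44 and 723, 560 and 747 CPM without, a log2 difference of 0.05 ± 0.0534.

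**Figure D3:**
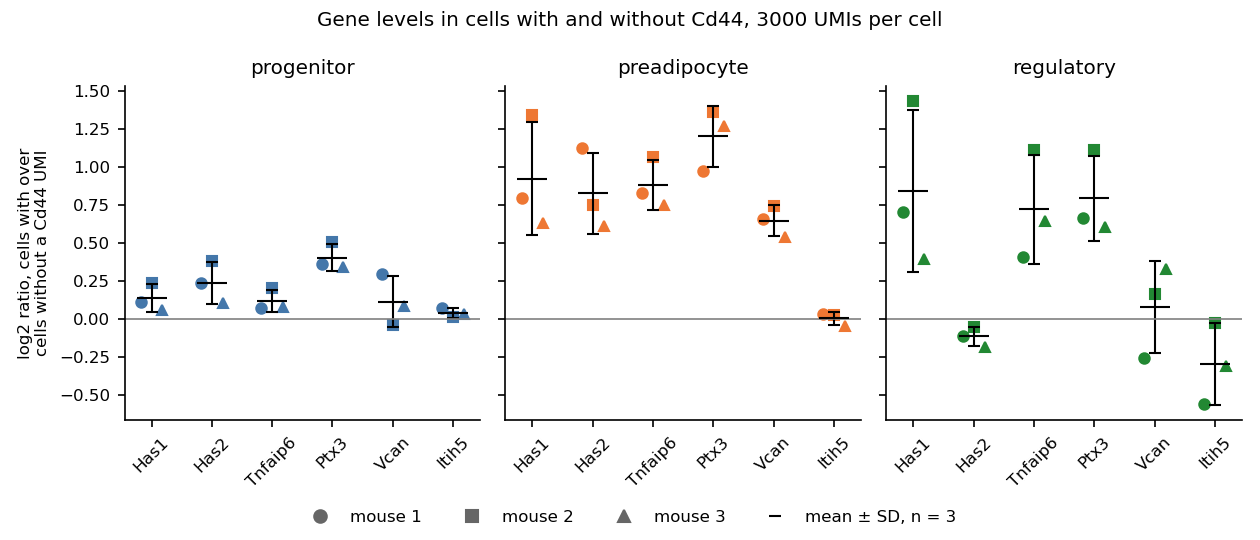
Log2 ratio of the level in cells with a Cd44 UMI over cells without one (vertical axis), at 3000 UMIs per cell, for 6 genes in each class, with 1 symbol per mouse and the mean ± SD of 3 mice. In preadipocyte cells all mice lie above 0 for Has1, Has2, Tnfaip6, Ptx3 and Vcan, and Itih5 lies at 0. In progenitor cells all mice lie above 0 for every gene but Vcan. The ratios of Has1, Has2, Tnfaip6 and Ptx3 are smaller there than in preadipocyte cells. In regulatory cells all mice lie above 0 for Has1, Tnfaip6 and Ptx3.

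The Cd44 differences were larger in preadipocyte than in progenitor cells by the test of the difference itself for 5 of 6 genes, against 4.08% of all genes (3.24% higher and 0.844% lower). The excess on the log2 scale was 0.88 ± 0.0741 for Ptx3 (adjusted p = 1.35e-15), 0.84 ± 0.0952 for Has1 (adjusted p = 1.67e-10), 0.83 ± 0.0742 for Tnfaip6 (adjusted p = 1.68e-14), 0.68 ± 0.131 for Has2 (adjusted p = 0.000146) and 0.54 ± 0.0896 for Vcan (adjusted p = 6.70e-06). Of these, the difference of Has1 did not pass with the robust estimate (adjusted p = 0.110), and those of Has2 and Vcan did not pass at 2000 UMIs (adjusted p = 0.689 and 0.0711). Between regulatory and progenitor cells 2 of 6 passed, against 0.91% of all genes (0.625% higher and 0.285% lower): Has1 (0.81 ± 0.136, adjusted p = 5.17e-05) and Tnfaip6 (0.71 ± 0.0934, adjusted p = 8.21e-08), neither of them with the robust estimate (adjusted p = 0.568 and 0.161), and Has1 not without mouse 2 (adjusted p = 0.180), at 2000 UMIs (adjusted p = 0.113) or without thinning (adjusted p = 0.0752). Between preadipocyte and regulatory cells 0 of 6 passed by edgeR and 0 of 6 by DESeq2, against 0.0658% of all genes (0.0548% higher and 0.011% lower), and 3 of 6 had an unadjusted p under 0.05.

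The rise in preadipocyte cells went on with the number of Cd44 UMIs. In mouse 1 the level of Ptx3 was 654, 1188 and 1755 CPM in cells with 0, 1 and 2 or more Cd44 UMIs, in mouse 2 it was 624, 1582 and 1685 CPM, and in mouse 3 it was 842, 1805 and 2645 CPM. Has1 went from 291 over 469 to 682 CPM in mouse 1, from 311 over 713 to 1055 CPM in mouse 2, and from 404 over 591 to 732 CPM in mouse 3. The same order held in each mouse for Has2, Tnfaip6 and Vcan, and for Itih5 in mouse 1 alone. The highest group was small, with 64, 55 and 107 cells.

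**Figure D4:**
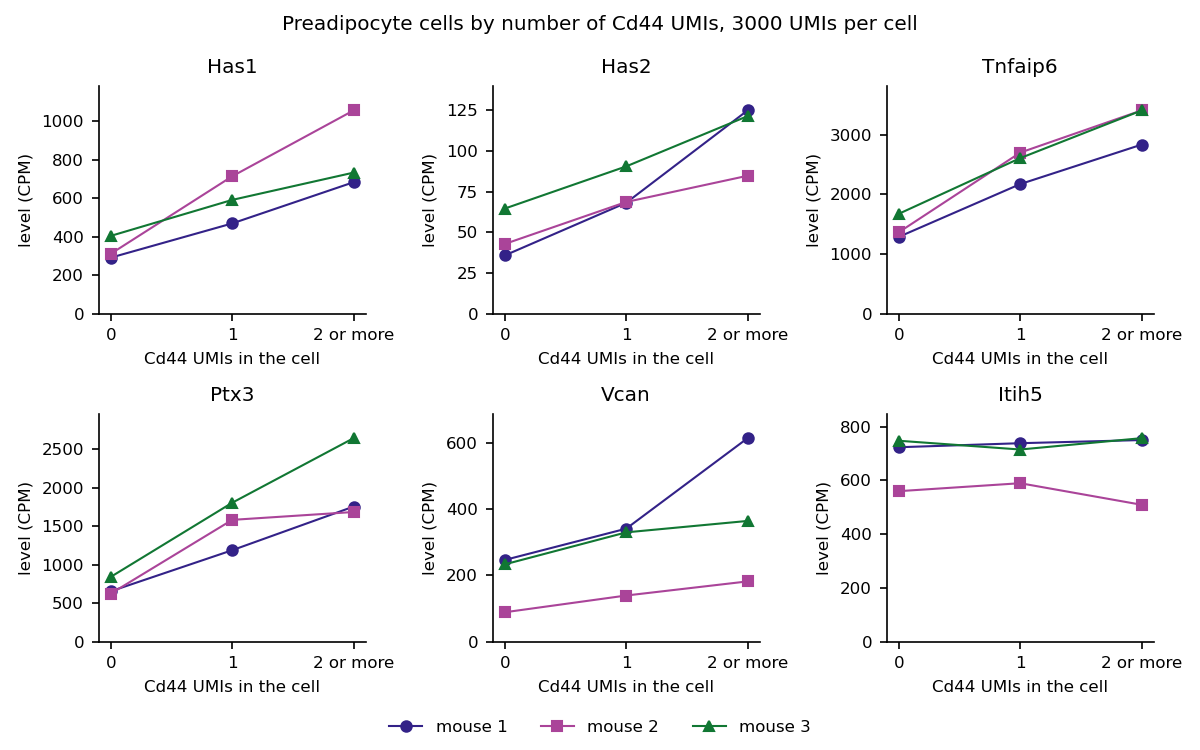
Level in CPM (vertical axis, from 0) in preadipocyte cells with 0, 1 and 2 or more Cd44 UMIs at 3000 UMIs per cell, with 1 line per mouse. The lines of Has1, Has2, Tnfaip6, Ptx3 and Vcan climb in every mouse, and those of Itih5 differ little between the groups of cells.

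The preadipocyte gate takes in cells through Icam1 as well as Fabp4, so the comparison was repeated with Fabp4 of at least 4 UMIs alone. The log2 differences with Cd44 were then 1.33 for Ptx3, 0.96 for Has2, 0.92 for Has1, 0.86 for Tnfaip6 and 0.75 for Vcan, all past the test (highest adjusted p = 5.21e-06). Depth did not differ much between the groups: median UMIs before thinning were 8439 with and 8101 without Cd44 in mouse 1, 13130 and 13014 in mouse 2, and 7239 and 7410 in mouse 3. Leaving out the block of the mouse, so that differences between mice count as spread, ended every call of the Cd44 comparison (0 genes by edgeR in preadipocyte cells, 542 at an unadjusted p under 0.05), while the log2 differences stayed at 1.27 for Ptx3 and 0.99 for Has1.

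Of the 11 sugar precursors, 4 rose with Cd44 in preadipocyte cells and 0 fell, with a median log2 difference of 0.10. Against 5.28% of all genes higher and 1.52% lower, 7 of the 28 other genes of the hyaluronan list that were tested rose with Cd44 in preadipocyte cells and 0 fell. They were Hk2 (1.01 ± 0.0684), Ugdh (0.82 ± 0.0661), Uap1 (0.76 ± 0.0712) and Gfpt2 (0.60 ± 0.0600) of the sugar supply, the protease genes Adamts4 (1.06 ± 0.0965) and Adamts1 (0.42 ± 0.0548), and Cemip2 (0.97 ± 0.205). In regulatory cells, where 0.757% of all genes were higher and 0.34% lower, 6 of 28 rose and 0 fell, and Adamts4, Adamts1, Gfpt2 and Uap1 rose in every mouse. In progenitor cells 0 of 28 passed by edgeR, against 2.16% of all genes, and 6 of 28 had an unadjusted p under 0.05.

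Other genes moved with Cd44 as well. In preadipocyte cells the largest rises were those of Cxcl2 (1.92 ± 0.155), Ifit1 (1.31 ± 0.102), Ptx3, Spsb1 (1.18 ± 0.126) and Il6 (1.13 ± 0.0959), and the largest falls included those of Txnip (-0.95 ± 0.0570), Hes1 (-0.82 ± 0.103), G0s2 (-0.80 ± 0.0741) and Hspa1a (-0.75 ± 0.0620). Cxcl2 varied widely between mice, with 78.2 ± 75.3 CPM with Cd44 and 21.8 ± 13.1 CPM without (mean ± SD). Cxcl2 and Il6 are inflammatory cytokine genes, Ifit1 is induced by interferon and Txnip responds to glucose. The paper had named Txnip and G0s2 as markers of its Icam1+ cells with low Cd44. Their falls in the same cells are therefore not independent of that result. It also reported high Txnip and G0s2 by quantitative RT-PCR in sorted cells with low CD44. In regulatory cells Ifit1, then Ifi47 (1.48), Ccl7 (1.15), Txnrd1 (1.13) and Adamts4 (1.04) led the rises, and Gm26532 (-1.16), Hspb1 (-1.11), Txnip (-0.80), Hspa1a (-0.77) and Rsrp1 (-0.67) the falls. Ifit1 had 225 ± 232 CPM with Cd44 and 57.7 ± 26.9 CPM without there (mean ± SD). For genes outside the set, values with the robust estimate are not given here. In progenitor cells the largest rises were smaller, with Bgn (0.68), Thy1 (0.53), Cd9 (0.52), Dmkn (0.52) and Gdf10 (0.48), and the falls were led by Cldn10 (-0.55), Emd (-0.51), Cxcl13 (-0.48), Inmt (-0.39) and Nsd3 (-0.39). Markers of the other classes moved there too: 4 of 6 regulatory markers (median 0.48) and 2 of 6 preadipocyte markers (median 0.24) rose with Cd44 and 0 fell. Of all genes 1.39% rose and 0.768% fell there. Summed regulatory markers in progenitor cells were 720, 622 and 508 CPM with Cd44 and 519, 394 and 372 CPM without.

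Of 13 NF-kB targets tested, 10 rose with Cd44 in preadipocyte cells, 4 in regulatory cells and 2 in progenitor cells, against 5.28%, 0.757% and 1.39% of all genes. The summed level of all 14 targets in preadipocyte cells was 5724, 6855 and 8552 CPM with Cd44 and 4327, 4315 and 6194 CPM without. That sum holds the gate gene Icam1. The summed dissociation response went the other way, with 35074, 30400 and 31507 CPM with Cd44 and 39650, 33077 and 38930 CPM without. Of its 23 genes 3 rose and 8 fell, against 5.28% and 1.52% of all genes. Summed preadipocyte markers were 5558, 4490 and 5390 CPM with Cd44 and 6249, 5286 and 6300 CPM without. Summed progenitor markers were higher with Cd44 in 3 of 3 mice, at 2787, 3083 and 2730 CPM against 2607, 2908 and 2541 CPM, and 2 of 7 were called higher (median 0.28). The part of these lists in the differences of the 9 genes was not tested. Summed endothelial markers were lower with Cd44, at 13.8, 1.34 and 0 CPM against 24.6, 56.8 and 4.23 CPM, and leukocyte markers were at 0, 0 and 1.65 CPM with Cd44, with 5 of 6 at 0 in all mice. Summed mural markers were at 83.8, 22.8 and 14.8 CPM with Cd44 and 62.5, 30.0 and 89.6 CPM without, higher with Cd44 in mouse 1 alone.

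Detection in single cells was compared as well. In preadipocyte cells the log2 odds ratio of finding a gene in a cell that also held Cd44 was 1.27 ± 0.23 for Ptx3 (SD, n = 3 mice), 1.17 ± 0.22 for Tnfaip6, 1.16 ± 0.52 for Has1, 0.83 ± 0.21 for Has2 and 0.65 ± 0.07 for Vcan, each above 0 in 3 of 3 mice. For Itih5 it was -0.12 ± 0.11, below 0 in 3 of 3 mice, but 0.02 ± 0.14 with the stricter gate and 0.36 ± 1.32 without thinning, each above 0 in 1 mouse. The value for Has2 was 0.47 with another random seed and 0.49 at 2000 UMIs per cell, above 0 in 3 of 3 mice both times. In progenitor cells the odds ratio was 0.54 ± 0.35 for Tnfaip6, 0.48 ± 0.09 for Ptx3, 0.28 ± 0.40 for Has1 and 0.25 ± 0.17 for Has2. For Vcan it was 0.22 ± 0.24 and for Itih5 -0.03 ± 0.12, each above 0 in 2 of 3 mice. In regulatory cells it was 1.30 ± 0.59 for Ptx3, 0.60 ± 0.56 for Tnfaip6 and 0.66 ± 1.06 for Has1, the last from -0.52 to 1.53 between mice. Has2 (-0.14 ± 0.25), Vcan (0.13 ± 0.34) and Itih5 (-0.18 ± 0.19) were each above 0 there in 1 mouse. An exact two-sided sign-flip permutation test over 3 mice cannot go below 0.25, the value it gave wherever the 3 mice agreed in sign.

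Of the 21 pairs among the 7 genes of the set other than the hyaluronidases, 16 had a log2 odds ratio above 0 in every mouse in preadipocyte cells and 3 below 0 in every mouse, 15 and 1 in progenitor cells, and 9 and 1 in regulatory cells. Pairs of other genes were not counted in this way. Whether such counts are particular to this set was therefore not tested. The strongest pair was Ptx3 with Tnfaip6 in preadipocyte cells (1.81, 1.82 and 2.44 in mice 1, 2 and 3). In progenitor cells it was Has1 with Tnfaip6 (1.53, 2.36 and 1.66). The pairs of Itih5 with Has1, Tnfaip6 and Cd44 were the 3 below 0 in preadipocyte cells. Has1, Ptx3 and Tnfaip6 were found together in 33.1%, 42.6% and 44.7% of preadipocyte cells with Cd44 and in 16.7%, 13.7% and 25.9% of those without. In progenitor cells these shares lay closer, at 43.3%, 40.5% and 56.4% with Cd44 against 37.3%, 30.5% and 49.4% without. Among the 24 residual endothelial cells, 7 held a Has1 UMI, 9 a Tnfaip6 UMI and 6 a Ptx3 UMI. Has1 was found in 2, 0 and 5 of the 8 such cells of each mouse. Of 7 residual leukocytes, 3 held Ptx3, 4 held Tnfaip6 and 0 held Has1, Has2, Vcan or Itih5. Whether the residual cells made these transcripts themselves was not tested, so the pooled endothelial intervals are only a rough guide to background. The interval for Has1 (12.6% to 51.1%) covers the shares of preadipocyte cells with a Has1 UMI (34.5% to 47.7%) and those of regulatory cells in mice 1 and 2, but not those of progenitor cells (72.1% to 84.3%). For Has2 (0.105% to 21.1%) it covers the shares of preadipocyte cells (9.15% to 15.0%) and regulatory cells (9.65% to 18.2%). For Ptx3 (9.77% to 46.7%) it covers all 3 shares of regulatory cells, those of preadipocyte cells in mice 1 and 2 and that of progenitor cells in mouse 2. For Vcan (1.03% to 27.0%) it covers the shares of regulatory cells and of the preadipocyte cells of mouse 2, and for Tnfaip6 (18.8% to 59.4%) none.

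**Figure D5:**
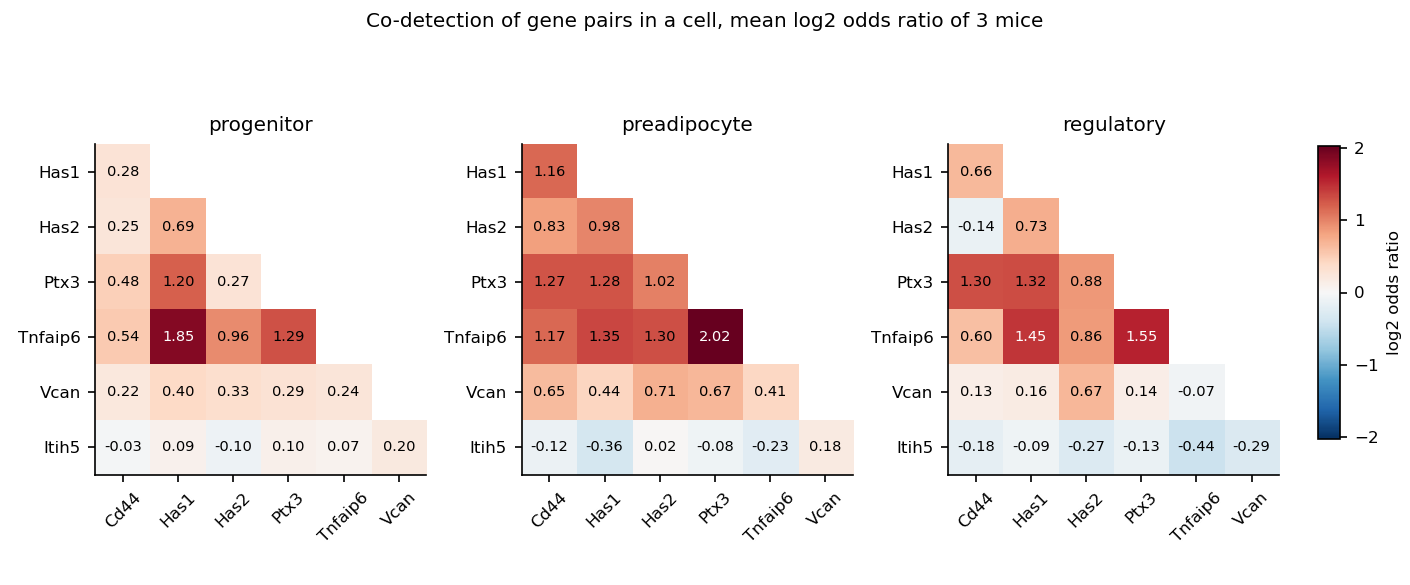
Mean log2 odds ratio over 3 mice (colour and number) that 2 genes were detected in the same cell at 3000 UMIs per cell, for the 21 pairs in each class. Pairs among Cd44, Has1, Has2, Ptx3 and Tnfaip6 are positive in preadipocyte cells, and pairs with Itih5 lie between -0.44 and 0.20 in all classes.

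The cells that met no gate lay between the classes for the synthases. Their Has1 level was 708, 1051 and 1162 CPM and their Has2 level 107, 104 and 156 CPM, below the progenitor and above the preadipocyte values of the same mouse. Their Cd44 level was 85.3, 83.5 and 109 CPM, above that of progenitor cells in each mouse, and their Ptx3 level 734, 829 and 1153 CPM.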

How the data were processed

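Each of the 3 libraries was deposited by the authors as a matrix of raw UMI counts, in whole numbers and without normalization, which Cell Ranger had made from 10x 3' reads. The matrix headers name version 4.0.0, and the methods of the paper name a release of the same major version. The submitters' processing notes instead name version 2.1.1, with the build mm10. The exact release was not resolved. Use of strand in the counting is not given in the sources used here.

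Cells with more than 500 genes and under 5% mitochondrial UMIs were kept, gated on raw UMIs, and the counts of each class were summed per mouse. No doublet caller was run, and cells above the 95th percentile of UMIs were left out as an alternative. Classes were compared in edgeR 4.0.16 (R 4.3.3, limma 3.58.1) with TMM scaling, the quasi-likelihood test, the mouse as a block and Benjamini-Hochberg adjustment over all genes (threshold 0.05). For the Cd44 comparison each cell was thinned at random to 3000 UMIs, shallower cells were left out, and cells with and without Cd44 were summed in 1 fit over the 3 classes. The common spread of genes counted for 71.0 prior degrees of freedom there, beside 6 residual ones, so that most of each SE comes from all genes, and a robust estimate is given as an alternative. The block stands for sums taken from the same animal, and deviations of sums of 1 mouse correlated at 0.25 to 0.75 (Pearson's r over 13264 genes). With the block, differences in level between mice do not count as spread. In the class comparison the common spread counted for 7.72 prior degrees of freedom, beside 4 residual ones. The p-values set each difference against an estimate of how much it varies over these 3 mice. In both comparisons that estimate leans on the spread shared by all genes, and most so in the Cd44 comparison. Intervals cover counting error only. Co-detection odds ratios used a pseudocount of 0.5. DESeq2 1.42.0 served as an alternative. Sums, thinning and odds ratios were computed with pandas 2.3.3, scipy 1.17.1 and numpy 2.4.6 in Python 3.11.15, and figures with matplotlib 3.10.9.

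The genes and lists were chosen with earlier results of these data known. Besides the 9 genes, the text names genes of the hyaluronan list that were called, had the same sign in 3 of 3 mice and reached 20 CPM in a class, the 5 largest rises and falls with Cd44 among genes of at least 50 CPM, and the 5 genes most like Cd44, while Hk1, Gpi1 and Has3 were named after their values were seen. Of the genes this rule gives, 1 is not reported here. Gene positions are those of GENCODE vM21 (GRCm38). The edgeR fits were checked on simulated data with known changes for preadipocyte against progenitor cells and for Cd44 in preadipocyte cells. Of 50 changes of 1.5-fold, 15 and 28 were recovered in that order, and of 50 changes of 2-fold, 47 and 48. False calls were 7 of 13414 and 14 of 8930 genes. The simulated counts held no differences between mice, so the block was not checked. They also gave every gene the same spread, so genes of unusual variance were not checked. The other contrasts and the odds ratios had no such check.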

Additional observations from a re-analysis of the deposited data

Results flagged for a closer look

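For 7 results the difference between cells with and without Cd44 was itself different between classes, by edgeR's quasi-likelihood test of the interaction. Between preadipocyte and progenitor cells the differences on the log2 scale were 0.88 for Ptx3, 0.84 for Has1, 0.83 for Tnfaip6, 0.68 for Has2 and 0.54 for Vcan, where 4.08% of all genes differed. Between regulatory and progenitor cells they were 0.81 for Has1 and 0.71 for Tnfaip6, where 0.91% of all genes differed. With a robust estimate of the spread, Has1 in both (adjusted p = 0.110 and 0.568) and Tnfaip6 in regulatory cells (adjusted p = 0.161) did not pass. The regulatory difference for Ptx3 (0.43, adjusted p = 0.0900) did not pass, but did under 6 alternatives, among them a stricter gate (0.65, adjusted p = 0.00296). With 3 mice per class, no group was large enough for a test of single outlying samples.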

How the results depend on the processing

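Of the values for single genes, 392 of the class comparison kept their direction and side of the threshold under the alternatives, 24 lost the call, 3 gained it and 13 changed sign. For the Cd44 comparison these were 246, 24, 4 and 13, and for its differences between classes 107, 15, 6 and 0. Of the co-detection odds ratios 124 moved by less than 1 SD and 20 by more. DESeq2 gave no adjusted p for Has2 in progenitor cells, which is not counted. All values that changed sign were uncalled, and the cause of the changes below was not tested.

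Without the replicate block, the genes called went from 7471 to 3996 (preadipocyte against progenitor), 5694 to 3130 (regulatory against progenitor) and 3405 to 1531 (preadipocyte against regulatory). In the Cd44 comparison 0 genes passed edgeR's test without the block in any class or difference, with 115, 542 and 440 (progenitor, preadipocyte, regulatory) and 184, 294 and 277 (preadipocyte minus progenitor, regulatory minus progenitor, preadipocyte minus regulatory) at an unadjusted p under 0.05. Gating thinned cells gave 3241 for regulatory against progenitor and 1854 for preadipocyte against regulatory, and thinning after gating gave 2126 for the latter. Leaving out 1 mouse gave 6117 to 6625, 4173 to 4792 and 2053 to 2800 (lowest without mouse 2) in the class comparisons.

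The 197 genes called with Cd44 in progenitor cells became 128 at 2000 UMIs, 500 without thinning, 114 with at least 2 Cd44 UMIs, 101 with DESeq2, 421 without the low-count filter and 61 to 186 without 1 mouse. The 620 in preadipocyte cells became 272 at 2000 and 1093 at 5000 UMIs, 1917 without thinning, 318 with at least 2 Cd44 UMIs, 326 with the Fabp4 gate (an alternative chosen after seeing the data, like the robust estimate) and 334 to 468 without 1 mouse. The 100 in regulatory cells became 28 at 2000 UMIs, 267 without thinning, 61 with at least 2 Cd44 UMIs and 50 to 83 without 1 mouse. For preadipocyte minus progenitor, 372 became 154, 917, 145 and 182 under 2000 UMIs, no thinning, at least 2 Cd44 UMIs and the Fabp4 gate, 242 with DESeq2 and 157 to 266 without 1 mouse. For regulatory minus progenitor, 83 became 33, 190 and 38 under the first 3 of these and 40 to 48 without 1 mouse. For preadipocyte minus regulatory, 6 became 1 at 2000 UMIs, 3 with the stricter gate, 2 with the Fabp4 gate, 1 with DESeq2, 10 without the filter and 4 to 13 without 1 mouse. Without the low-count filter 21.4% of the calls in progenitor cells were higher (90 against 331, with a median of -0.11 over all genes), and with DESeq2 46.5%, beside 64.5%. With at least 2 Cd44 UMIs 39.3% of the calls were higher in regulatory cells, beside 69%, and 34.2% for regulatory minus progenitor, with medians of -0.23 and -0.22 over all genes. Scaling by library size only moved the share of higher calls from 64.5% to 76.9% in progenitor cells, from 79.3% to 63.0% for preadipocyte minus progenitor and from 68.7% to 51.5% for regulatory minus progenitor. Of 18 gene and class pairs, 11 had an odds ratio above 0 in every mouse, and 12 did without any 1 mouse. No such count was made for genes outside the set.

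In the class comparison the following changed sign. For preadipocyte against progenitor, Itih5 ranged from -0.022 to 0.12 without 1 mouse. Hyal1 was at -0.070 in thinned cells for regulatory against progenitor. For preadipocyte against regulatory, Tnfaip6 was at -0.068 with gating of thinned cells and -0.024 with the Fabp4 gate, Hyal2 at -0.015 in thinned cells and -0.26 to 0.35 without 1 mouse, Has2 at -0.63 to 0.026 without 1 mouse, and Hyal1 at 0.055 with up to 10% mitochondrial UMIs, 0.50 in thinned cells, 0.018 by library size, 0.0045 without the filter and -0.32 to 0.23 without 1 mouse. With Cd44 in progenitor cells, Itih5 was at -0.018 with at least 2 Cd44 UMIs, -0.052 without the filter and -0.0058 to 0.033 without 1 mouse. In preadipocyte cells it was at -0.054 at 2000 UMIs. In regulatory cells Itih5 was at 0.17 at 5000 UMIs, 0.041 without thinning and 0.16 with at least 2 Cd44 UMIs, Vcan at -0.072 with the stricter gate and -0.052 to 0.33 without 1 mouse, and Has2 at 0.55 at 5000 UMIs, 0.53 without thinning, 0.22 with the stricter gate and 0.33 with the Fabp4 gate.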
